A study of Mus musculus with 12 samples.

Results

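The comparison described here set the retina of Pias3 knockout mice against the wild-type retina at postnatal day 21 (P21), the end of the third week after birth, when photoreceptors have formed their outer segments. Its libraries were taken by their labels in the count table: the 3 P21 knockout libraries and the 3 P21 wild-type libraries, 6 of the 12 in the series. The study asked what the loss of Pias3 does to retinal development and to the transcriptome of the young and the aged retina. The other 6 libraries came from mice of 18 months and were used to ask whether a change at P21 differed from that in old animals and, as an alternative, to share the estimate of spread. Of 24062 genes in the table, 12109 were tested, those that reached 2 FPKM, a level scaled to library depth and to the exon length counted, in 1 or more of the 6 libraries.

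All 6 libraries were labelled as whole retina of C57Bl6/J mice. The knockout mice, labelled PIAS3 KO and written Pias3-/- below, carry a germline deletion of exons 2 to 5 of Pias3. By the study's methods the floxed allele was crossed to Rx-Cre to delete it in retina and forebrain, and recombination that also took place in the germline gave the line, so the deletion was carried in all tissues and not in the retina alone. The neomycin cassette had been removed with Flp recombinase. The wild-type (Pias3+/+) group carried neither change. The replicates of a genotype were described as independent biological samples, and each sample pooled 2 retinas.

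Pias3 is an E3 ligase for SUMO, a small protein that is attached to other proteins and alters their activity and location, and it is also known as an inhibitor of the transcription factor Stat3. In the retina it is known from studies of cultured and electroporated tissue as a partner of the factors that set rod and cone identity, among them Crx, Nrl and Nr2e3. Rods carry vision in dim light and make up most cells of the mouse retina, cones serve daylight and color vision, and both pass their signal to bipolar and horizontal cells at a ribbon synapse in the outer plexiform layer.

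The targeted gene came first as a check of the labels. Pias3 was counted at 134, 117 and 145 CPM (counts relative to the library total after TMM scaling) in wild-type replicates 1, 2 and 3 and at 74.3, 77.3 and 89.1 CPM in Pias3-/- replicates 1, 2 and 3, the order used for every list of 6 values below. No knockout library reached the lowest wild-type library. The log2 fold change was -0.71 ± 0.11 (standard error, SE) with an adjusted p of 0.0346 (edgeR quasi-likelihood test, Benjamini-Hochberg over 12109 genes). The count is summed over the whole gene (chr3:96696375-96706070, mm10), so reads from exons outside the deletion still enter it.

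Library totals lay between 14411287 and 21452876 counts, and 3 counts, taken here as the floor of detection, corresponded to 0.134 to 0.214 CPM. Both genotypes held libraries of both sexes: Xist counts were 35641, 5, 34728, 8, 18 and 15790, and the summed counts of 4 Y-linked genes were 0, 3081, 0, 3626, 3887 and 1. The libraries also differed in how a gene's departure from its mean followed the length counted for it, with Spearman coefficients across genes of 0.39, 0.31, 0.09, -0.19, 0.30 and -0.55. Red cell genes were near 0 in every library, and the summed level of 27 microglia and macrophage genes was 109 to 135 CPM. Genes of neighboring eye tissue were present and uneven: Rpe65, an enzyme of the pigment epithelium, stood at 45.6, 50.1, 28.5, 4.78, 57.2 and 10.4 CPM, and Cryaa, a lens crystallin, at 38.9, 183, 75.9, 36.6, 16.7 and 4.11 CPM. Whether these levels, the sex of the mice or the length trend had a part in the differences below was not tested, except where a value is given beside them.

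Across the transcriptome, 142 genes passed the test at an adjusted p of 0.05 or less, 29 higher and 113 lower in Pias3-/- retina, which is 1.17% of the genes tested. With a fold change of at least 1.5 as well, 99 remained as differentially expressed genes (DEGs), 24 higher (0.198%) and 75 lower (0.619%), or 0.818% of the genes tested. In each of the 99 the genotypes did not overlap, which largely follows from a call on the same 6 libraries and adds no support to it. Of all tested genes, 13.6% were lower and 12.6% higher without overlap. Lists of cell classes, functions and neighboring tissue covered 16 of the 99. Over all tested genes the median log2 fold change was 0.00 and 49.8% lay below 0. The number of calls rested on single libraries: without wild-type replicate 1, 2 or 3 there were 12, 8 or 6 DEGs, without Pias3-/- replicate 1 there were 6, and without Pias3-/- replicates 2 or 3 there were 340 or 154. Of 62 genes named here that passed the test, 55 passed in 2 of these 6 fits alone, those without Pias3-/- replicate 2 or 3. All 62 kept their direction in each fit, which their selection on the same libraries made likely and which adds no support. With scaling by library size alone, which moved the median of all genes by 0.09, there were 27 higher and 37 lower DEGs. With the level of the pigment epithelium genes as a covariate there were 13, 7 higher and 6 lower.

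Most rod genes and most genes shared by rods and cones lay lower in every knockout library than in any wild-type library, and most cone markers did not. Of 20 rod markers, 3 passed the test, all lower, against 0.933% of all tested genes and 15 of the 20 were lower without overlap, against 13.6% of all tested genes. Their median log2 fold change was -0.35. Of 31 genes shared by rods and cones, 2 passed, both lower, 20 were lower without overlap, and the median was -0.43. Of 15 cone markers, 1 passed, lower, 5 were lower without overlap, against the same 13.6%, and the median was -0.10. In whole retina, fewer cells of a type and less RNA per cell cannot be told apart.

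**Figure D1:**
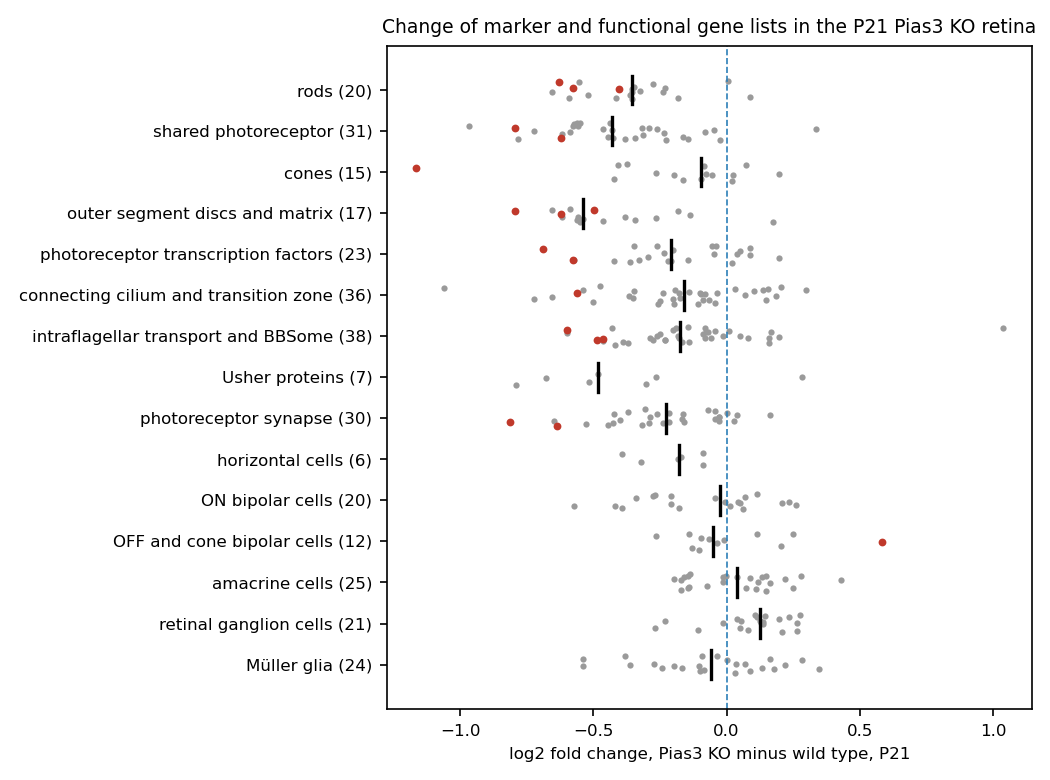
Log2 fold change of each tested gene (x axis, Pias3-/- minus wild type at P21) by cell class or function (y axis, number of genes in brackets). Red points passed the test, gray points did not, black bars are list medians and the dashed line is the median of all 12109 genes. The rod, shared photoreceptor and outer segment lists lie left of the line, with medians of -0.35, -0.43 and -0.54, and ganglion cell markers lie to its right.

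Summed over the 20 rod markers, the level was 79520, 76272 and 79860 CPM in wild type and 59339, 59432 and 56807 CPM in Pias3-/- retina. The 3 knockout libraries were thus close to each other and well below the wild type. With the pigment epithelium level as a covariate the rod median was -0.39, no photoreceptor list held a DEG (0 against 4), and Gnat1, described next, was at -0.68 with its call lost (adjusted p = 0.146).

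The rod cascade passes from the visual pigment to the G protein transducin. Gnat1, the rod transducin, stood at 14654, 13528, 13927, 9321, 8758 and 9130 CPM, and it was the rod DEG (-0.63 ± 0.07, adjusted p = 0.0163). The 3 knockout libraries lay close together and far below the lowest wild-type library, 35.4% lower in the fit, and the adjusted p was up to 0.117 with 1 library left out. Per length counted, Gnat1 was at 6302 ± 263 FPKM in wild type and 4086 ± 145 FPKM in Pias3-/- retina (SD, n = 3).

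Downstream of transducin the log2 fold changes were negative in most genes without passing in the fit without length correction. The catalytic phosphodiesterase subunits gave log2 fold changes of -0.59 for Pde6a (adjusted p = 0.0623) and -0.24 for Pde6b (adjusted p = 0.169). Cngb1, the beta subunit of the rod channel that closes in light, was at 785, 702, 875, 556, 528 and 563 CPM (-0.52, adjusted p = 0.0601). Sag, the arrestin of rods, was at 6244, 5671, 6256, 4798, 4428 and 4999 CPM (-0.35, adjusted p = 0.1). In all 3 of Pde6a, Cngb1 and Sag the genotypes did not overlap. Grk1, the photoreceptor kinase that helps to end the light response, was at 2608, 2551, 2462, 1704, 2107 and 1312 CPM, lowest in Pias3-/- replicate 3 (-0.57, adjusted p = 0.137). Rcvrn, the calcium sensor recoverin, was at 1340, 1332, 1327, 1019, 870 and 1063 CPM (-0.44, adjusted p = 0.0825). After the length correction given below, Pde6a, Sag, Grk1 and Rcvrn passed (adjusted p = 0.0213, 0.0182, 0.0329 and 0.00887), and Pde6b and Cngb1 did not (0.107 and 0.177). Over the 32 genes of the cascade, rod and cone parts together, 30 had a negative log2 fold change and 19 were lower at an unadjusted p of 0.05 or less, against 9.62% of all tested genes. The exception among the regulators was Guca1a, the guanylate cyclase activator GCAP1, at 601, 594, 675, 801, 732 and 830 CPM, with every knockout library above every wild-type library (0.34, adjusted p = 0.128).

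**Figure D2:**
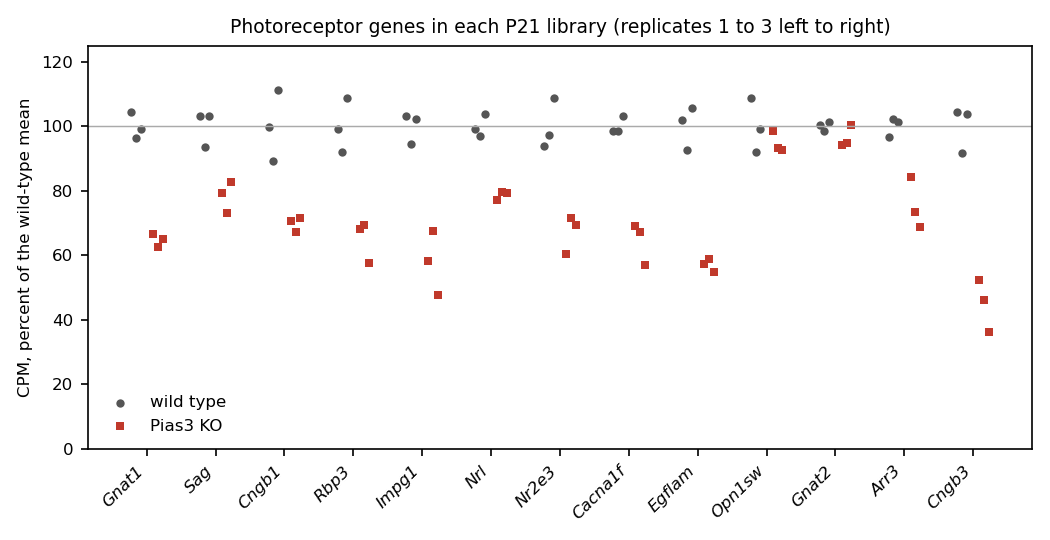
Level of 13 photoreceptor genes in each of the 6 P21 libraries (y axis, CPM as a percent of the wild-type mean of that gene), wild type as gray circles and Pias3-/- as red squares. For Opn1sw and Gnat2 the genotypes overlap, and for the other 11 the knockout points sit below all wild-type points.

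Genes of the outer segment and the matrix around it had the lowest median among the photoreceptor lists. Of 17 such genes 3 passed, all lower, against 0.933% of all tested genes, 11 were lower without overlap, against 13.6%, and the median log2 fold change was -0.54. Rbp3, which encodes the retinoid carrier IRBP of the matrix, stood at 5170, 4795, 5662, 3540, 3608 and 3000 CPM (-0.62 ± 0.10, adjusted p = 0.0401). Impg1, a proteoglycan of the same matrix, stood at 438, 402, 435, 247, 287 and 202 CPM (-0.79 ± 0.13, adjusted p = 0.0395). In both genes the lowest library was Pias3-/- replicate 3, and both calls were lost without Pias3-/- replicate 1 or any wild-type library, with adjusted p-values up to 0.214 for Rbp3 and 0.217 for Impg1. Crb2, a polarity protein of the outer limiting membrane, passed at a smaller fold (-0.50, adjusted p = 0.0474), and the call was lost after correction for gene length (adjusted p = 0.131). The disc proteins Prom1, Cdhr1 and Prph2 gave -0.62, -0.56 and -0.34 with adjusted p-values of 0.0649, 0.0697 and 0.143. Abca4, the flippase that clears retinal from the discs, gave -0.78 (adjusted p = 0.0582), and outside the list Nxnl1, which encodes the rod-derived cone viability factor, fell from 395, 409 and 417 CPM to 250, 186 and 256 CPM (-0.82, adjusted p = 0.0352).

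The promoters of 4 photoreceptor genes are shown because Crx, a partner of Pias3, is known to bind the letters TAATCC. Each is 300 bases, 250 before and 50 after the start in RefSeq GRCm38.p6, the mm10 assembly, read 5′ to 3′ on the gene's strand, with TAATCC on either strand (GGATTA when it lies on the other) in capitals.
Rbp3, chr14:33953753-33954052, + strand: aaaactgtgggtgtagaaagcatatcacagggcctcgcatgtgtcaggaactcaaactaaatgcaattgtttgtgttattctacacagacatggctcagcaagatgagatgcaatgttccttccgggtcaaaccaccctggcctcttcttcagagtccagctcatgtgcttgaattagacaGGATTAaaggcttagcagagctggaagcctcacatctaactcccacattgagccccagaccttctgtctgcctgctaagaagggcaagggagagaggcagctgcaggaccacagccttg
Cngb1, chr8:95306536-95306835, - strand: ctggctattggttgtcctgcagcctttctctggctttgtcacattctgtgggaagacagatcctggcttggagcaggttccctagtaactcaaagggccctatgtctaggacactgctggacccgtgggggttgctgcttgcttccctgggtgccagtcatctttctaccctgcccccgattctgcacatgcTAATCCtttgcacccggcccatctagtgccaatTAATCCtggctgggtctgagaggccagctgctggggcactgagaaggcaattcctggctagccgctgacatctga
Impg1, chr9:80465389-80465688, - strand: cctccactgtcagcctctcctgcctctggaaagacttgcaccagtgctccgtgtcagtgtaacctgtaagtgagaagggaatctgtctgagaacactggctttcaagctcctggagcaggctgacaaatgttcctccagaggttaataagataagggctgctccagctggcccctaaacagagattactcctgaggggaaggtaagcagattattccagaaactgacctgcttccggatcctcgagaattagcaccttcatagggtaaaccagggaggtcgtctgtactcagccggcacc
Egflam, chr15:7398346-7398645, - strand: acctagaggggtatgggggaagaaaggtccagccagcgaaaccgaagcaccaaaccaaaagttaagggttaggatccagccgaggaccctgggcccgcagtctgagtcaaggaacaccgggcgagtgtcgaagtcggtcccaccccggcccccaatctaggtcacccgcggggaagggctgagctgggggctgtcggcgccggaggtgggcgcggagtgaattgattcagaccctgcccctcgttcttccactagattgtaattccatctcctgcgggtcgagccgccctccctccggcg
Rbp3 held 1 match, 69 bases before the start, and Cngb1 held 2, at 58 and 25 bases before it, while the windows of Impg1 and of Egflam, a synaptic gene described below, held none, with log2 fold changes of -0.79 and -0.81 for those genes. Among promoters that matched a gene symbol, TAATCC was in 6 of 14 rod markers, 8 of 24 shared photoreceptor genes, 2 of 11 cone markers, 4 of 17 ON bipolar, 3 of 20 amacrine, 2 of 14 Müller glia and 0 of 11 ganglion cell markers. It was in 8 of the 48 lower DEGs and 1 of the 15 higher DEGs whose promoters were searched, out of 75 and 24. The shares to compare were 5.69% of 9018 tested genes and 7.16% of the 27025 promoters searched, of the same length. The promoters searched did not cover every chromosome or every tested gene, so these counts leave out some DEGs.

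Among the transcription factors that set photoreceptor fate, a few passed the test. Nrl, the bZIP factor that commits cells to the rod fate, stood at 2147, 2098, 2247, 1665, 1722 and 1714 CPM (-0.35, adjusted p = 0.0752). Nr2e3, the nuclear receptor that keeps cone genes off in rods, stood at 566, 587, 655, 365, 431 and 417 CPM and passed the test (-0.58 ± 0.10, adjusted p = 0.0435). Crx, upstream of both rod and cone genes, gave -0.24 (adjusted p = 0.19). None of these 3 overlapped between the genotypes. Casz1, a zinc finger factor known from late retinal progenitors and rods, was the DEG of this list at 234, 226, 272, 169, 150 and 134 CPM (-0.69 ± 0.11, adjusted p = 0.0398, and 0.0674 after correction for gene length). Of 23 such factors 2 passed, Nr2e3 and Casz1, both lower, against 0.933% of all tested genes, and the median was -0.21. Their adjusted p-values rose to as much as 0.227 for Nr2e3 and 0.2 for Casz1 when Pias3-/- replicate 1 or a wild-type replicate was left out.

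Cone genes were split. The cone opsins were at 517, 438, 472, 469, 443 and 441 CPM for the short-wave Opn1sw, where the genotypes overlapped (-0.08, adjusted p = 0.711), and at 363, 388, 352, 301, 328 and 289 CPM for the middle-wave Opn1mw, where they did not (-0.27, adjusted p = 0.163). Gnat2, the cone transducin, gave -0.05 (adjusted p = 0.748) and Arr3, the cone arrestin, gave -0.41 (adjusted p = 0.0904), with 283, 299, 297, 247, 215 and 201 CPM. With scaling by library size alone, Opn1sw and Gnat2 turned to 0.015 and 0.038. Cngb3, the beta subunit of the cone channel, was the cone DEG and had the largest change of any cascade gene: 26.9, 23.6 and 26.7 CPM in wild type against 13.5, 11.8 and 9.28 CPM, or 55.4% lower (-1.16 ± 0.15, adjusted p = 0.0227, and up to 0.173 with a library left out other than Pias3-/- replicates 2 and 3). Cnga3, the alpha subunit of that channel, was at 22.8, 19.8, 20.8, 17.4, 15.9 and 15.6 CPM (-0.37, adjusted p = 0.133). Thrb, the thyroid hormone receptor that directs the middle-wave opsin, gave -0.42 (adjusted p = 0.306). None of 14 genes of the dorsoventral pattern of the retina passed the test, and their median was 0.03. RNA of whole retina cannot show a shift between its dorsal and ventral parts. By immunostaining, the study reported more cones with S-opsin in the dorsal Pias3-/- retina at P21.

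At the photoreceptor terminal, 2 of 30 genes passed, both lower DEGs, against 0.619% of all tested genes, and 26 of the 30 had a negative log2 fold change, against 49.8% (median -0.23). Egflam encodes pikachurin, which links the terminal to the tips of bipolar dendrites, and it was counted at 270, 245, 280, 152, 156 and 145 CPM. Each knockout library was far below the lowest wild-type library, 43% lower in the fit (-0.81 ± 0.08, adjusted p = 0.00908, and up to 0.107 with 1 library left out). Cacna1f, the calcium channel that triggers release from the ribbon synapse, stood at 348, 349, 365, 244, 238 and 201 CPM (-0.64 ± 0.09, adjusted p = 0.0312). The glutamate transporter of the vesicles, Slc17a7, and the ribbon protein gene Ctbp2 gave -0.40 and -0.31 with adjusted p-values of 0.0907 and 0.128. Lrit2, a leucine-rich repeat protein of photoreceptors, gave -0.42 (adjusted p = 0.0653).

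On the other side of that synapse the ON bipolar list held values in both directions. None of 20 ON bipolar markers passed by edgeR's quasi-likelihood test, with 3 higher and 5 lower at an unadjusted p of 0.05 or less, against 7.19% and 9.62% of all tested genes. Without overlap, 4 were higher and 7 lower, against 12.6% and 13.6%. The median was -0.03, and it was 0.068 with scaling by library size, -0.23 with the pigment epithelium covariate and -0.15 without Pias3-/- replicate 3. Grm6, the glutamate receptor by which ON bipolar cells sense photoreceptor release, came nearest at 127, 139, 144, 101, 106 and 101 CPM (-0.42, adjusted p = 0.0561). Lrit3, which places the channel of that receptor in the membrane, gave -0.57 (adjusted p = 0.128). Prkca, the classical marker of rod bipolar cells, was at 506, 532, 449, 407, 519 and 300 CPM, with Pias3-/- replicate 2 inside the wild-type range (-0.28, adjusted p = 0.498). Among 12 markers of OFF and cone bipolar cells Vsx1, a homeobox factor of those cells, passed and was higher, against 0.239% of all tested genes (43.8, 50.3, 45.5, 66.9, 74.5 and 67.4 CPM, 0.58 ± 0.09, adjusted p = 0.0352).

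Among receptors for inhibitory transmitters, Gabrr2, a subunit of the GABA receptors of bipolar terminals, was higher at 73.1, 76.3, 72.5, 95.2, 100.2 and 101 CPM (0.42 ± 0.07, adjusted p = 0.0413). It was the 1 of 18 that passed, against 0.239% of all tested genes higher, and this call was lost after correction for gene length (adjusted p = 0.0526). None of 16 glutamate receptor genes passed, with 4 lower and 0 higher at an unadjusted p of 0.05 or less, against 9.62% and 7.19% of all tested genes, and 15 had a negative log2 fold change. None of 26 potassium and HCN channel genes passed either, with 7 lower and 0 higher at the same unadjusted level and against the same shares. Among them Kcnd3, an A-type channel, was at 119, 123, 115, 85.5, 99.6 and 86 CPM (-0.40, adjusted p = 0.0832). Kcnd3 passed in the fit that shared the spread over all 12 libraries (adjusted p = 0.0287) and not after correction for gene length (0.161). Recognition molecules that sort retinal neurites into layers held 3 that passed of 37, all lower, against 0.933% of all tested genes. Dscaml1, a Down syndrome cell adhesion family protein, had the largest change of them: 164, 167 and 196 CPM in wild type and 75.8, 79.2 and 78.3 CPM in Pias3-/- retina. The 3 knockout libraries lay close together, 55.8% below wild type in the fit (-1.18 ± 0.09, adjusted p = 0.00319), and the call was lost in 1 of the 6 fits with a library left out, that without Pias3-/- replicate 1 (adjusted p = 0.064). Sdk2, a sidekick protein, was at 15.2, 13.4, 18.5, 8.16, 8.72 and 8.88 CPM (-0.87, adjusted p = 0.0395), and Ntng1, a netrin-G ligand, at 61.6, 62.7, 57.2, 40, 40.9 and 42.5 CPM (-0.56, adjusted p = 0.0312). After correction for gene length the calls of Sdk2 and Ntng1 were lost (adjusted p = 0.0621 and 0.0530).

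Genes of the photoreceptor cilium, through which the outer segment is supplied, had medians below 0 with few calls. Of 36 genes of the connecting cilium and transition zone 1 passed, lower, against 0.933% of all tested genes, and the median was -0.16. At an unadjusted p of 0.05 or less 10 were lower and 1 higher, against 9.62% and 7.19% of all tested genes. The gene that passed was the centrosomal Cep250 at 159, 150, 176, 116, 109 and 103 CPM (-0.56, adjusted p = 0.0363, and 0.113 after the length correction given below). Of 38 genes of intraflagellar transport and the BBSome, the coat that carries membrane proteins along the cilium, 3 passed, all lower, against 0.933% of all tested genes, and the median was -0.17. These were the BBSome subunits Ttc8 (-0.49, adjusted p = 0.0414) and Bbs1 (-0.46, adjusted p = 0.0474), and the transport protein gene Ift80 at 76.2, 75.7, 75.2, 49.8, 56.5 and 43.9 CPM (-0.60, adjusted p = 0.0444). Bbs9, a further subunit, gave -0.42 (adjusted p = 0.0571). The 7 Usher syndrome genes, large proteins of the calyx around the cilium, had a median of -0.48 with none passing, 4 lower at an unadjusted p of 0.05 or less, against 9.62% of all tested genes. Myo7a, their motor protein, was at 70.3, 59.5, 65.5, 49.3, 46.5 and 44.1 CPM (-0.48, adjusted p = 0.0624). Myo7a passed in the fit that shared the spread over all 12 libraries (adjusted p = 0.0107) and not after correction for gene length (0.177). Among 7 genes of axonemal motors 1 was a DEG, lower, against 0.619% of all tested genes, and the list median was -0.21. This was Dnah9, a dynein heavy chain, at 52.8, 60.5, 53.1, 15.1, 24.9 and 19.4 CPM (-1.49 ± 0.17, adjusted p = 0.0206).

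Several of these lists hold long genes, and across all tested genes the log2 fold change fell with the length counted (Spearman -0.35 across genes, which are not independent replicates). In 4 length groups of equal size, from the shortest to the longest, the median was 0.10, 0.04, -0.01 and -0.11. After a correction of each library for its own length trend, the coefficient was 0.03 and 85 of the 99 DEGs were called again among 128. The medians then were -0.39 for rods, -0.44 for shared photoreceptor genes and -0.45 for the outer segment list. Of 62 genes named here that passed the test, 7 lost the call. Another 16 named genes passed with the correction and not without it (adjusted p from 0.00795 to 0.0368). They were Abca4, Cdhr1, Grk1, Nrl, Pde6a, Prom1, Rcvrn, Sag, Slc17a7, Lrit2 and Bbs9, and in lists without a call Grm6, Abca8a, Hsp90b1, Hspa5 and Senp3. Some medians moved away from 0, among them cones from -0.10 to -0.17, the cascade from -0.30 to -0.34 and ON bipolar cells from -0.03 to -0.08. Others moved toward 0: synaptic recognition from -0.11 to 0.03, photoreceptor transcription factors from -0.21 to -0.08, and Usher genes from -0.48 to -0.32.

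Inner retinal neurons and glia showed no call among their markers by edgeR's quasi-likelihood test: none of 25 amacrine, 21 ganglion cell, 6 horizontal cell and 24 Müller glia genes passed. At an unadjusted p of 0.05 or less, 2, 4, 0 and 2 of them were higher and 0, 0, 2 and 4 lower, against 7.19% and 9.62% of all tested genes. The medians were 0.04, 0.12, -0.18 and -0.06, and that of Müller glia turned to 0.033 with scaling by library size, that of amacrine cells to -0.024 and that of ganglion cells to -0.0042 with the pigment epithelium covariate. Of the ganglion cell markers 17 of 21 had a positive log2 fold change, and their median was 0.07 after correction for gene length. Among them Rbpms, an RNA-binding protein of all ganglion cells, was at 57.1, 59.5, 52.2, 65.6, 67.3 and 71.4 CPM (0.28, adjusted p = 0.162). Nrn1, a neurite growth protein, gave 0.27 (adjusted p = 0.14) and Stmn2, a microtubule regulator of axons, 0.23 (adjusted p = 0.144). Each of the 3 was higher in every knockout library than in any wild-type library, and the median deviation of the ganglion cell list ranged from -0.01 in Pias3-/- replicate 2 to 0.29 in replicate 3.

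For amacrine cells, Gad1, which makes the transmitter GABA, gave 0.11 (adjusted p = 0.516) and Vip, a peptide of an amacrine class, 0.43 (adjusted p = 0.157). In Müller glia, Glul, the glutamine synthetase that clears glutamate, was at 3095, 3340, 2973, 3273, 3048 and 3309 CPM with full overlap (0.03, adjusted p = 0.878, and -0.0037 without wild-type replicate 3). Abca8a, a transporter of these glia, gave -0.54 (adjusted p = 0.0528), and its neighbor Abca8b, outside the list, was a DEG at 29, 29.6, 30.1, 17.8, 19.9 and 17.2 CPM (-0.69, adjusted p = 0.0258). Reads shared by these similar paralogs could be split between them. Hes1, a Notch target of these glia, gave -0.54 (adjusted p = 0.0825), and Dbi, a carrier of acyl-CoA, 0.35 (adjusted p = 0.101).

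None of 8 genes of stress and gliosis passed by edgeR's quasi-likelihood test, with 3 higher and 0 lower at an unadjusted p of 0.05 or less, against 7.19% and 9.62% of all tested genes. Gfap, the filament of reactive glia and astrocytes, was at 17.9, 16.6, 22.1, 23, 26.4 and 32.1 CPM (0.53, adjusted p = 0.163), and Lcn2, an early stress marker of the retina, at 3.96, 3.28, 3.25, 5.97, 5.01 and 7.09 CPM (0.79, adjusted p = 0.0897). In both, every knockout library was above every wild-type library. None of 5 astrocyte genes passed, with 2 higher and 0 lower at that unadjusted level and a median of 0.18, and the median deviation of that list was 0.22, 0.29 and 0.27 in Pias3-/- replicates 1, 2 and 3. Of 10 endothelial genes none passed, with 2 higher and 2 lower at that unadjusted level and a median of 0.22. The median deviation of the list was 0.19, -0.16 and 0.45 in Pias3-/- replicates 1, 2 and 3. Slco1a4, a transporter of the vessel barrier, gave -0.34 (adjusted p = 0.139). Pecam1, a junction protein of vessels, was at 12.9, 13.1, 13.8, 17.6, 18.1 and 21.6 CPM (0.53, adjusted p = 0.0865).

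Of 13 tested genes of pigment epithelium and melanocytes, the 1 that passed was Krt18, a keratin, and it was higher (59.1, 53.3, 66.8, 114, 103 and 116 CPM, 0.89 ± 0.10, adjusted p = 0.0189), against 0.239% of all tested genes. At an unadjusted p of 0.05 or less 5 of the 13 were lower and 1 higher, against 9.62% and 7.19% of all tested genes. The list as a whole had a median of -0.88, and its median deviation from wild type was -2.10, -0.17 and -1.21 in Pias3-/- replicates 1, 2 and 3. Krt18 did not follow that pattern, since it was high in all 3. Over the 15 tested lens genes, the median was -1.79 with none passing, and 8 were lower and 0 higher at that unadjusted level.

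**Figure D3:**
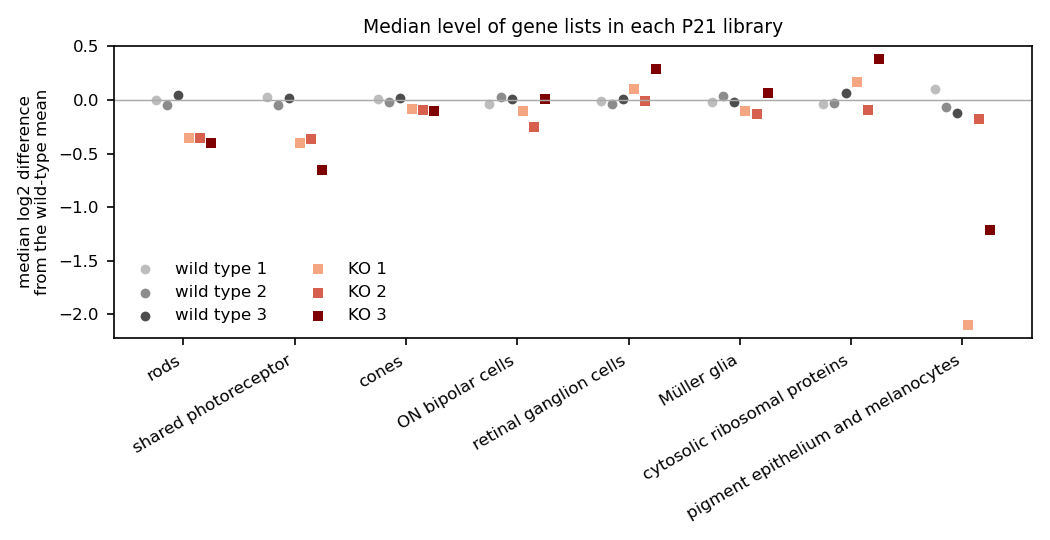
Median log2 difference from the wild-type mean (y axis) over the genes of 8 lists (x axis) in each of the 6 P21 libraries, circles for wild type and squares for Pias3-/-. Rod genes were at -0.35, -0.35 and -0.40 in the knockout libraries, whereas pigment epithelium genes were at -2.10, -0.17 and -1.21.

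In energy metabolism, photoreceptors rely on aerobic glycolysis, and 1 of 21 glycolytic genes passed, lower, against 0.933% of all tested genes. This was Pfkp, a phosphofructokinase, at 444, 463, 487, 341, 345 and 342 CPM (-0.44 ± 0.07, adjusted p = 0.0398). At an unadjusted p of 0.05 or less 6 were lower and 1 higher, against 9.62% and 7.19% of all tested genes. Hk2, the hexokinase of photoreceptors, gave -0.33 (adjusted p = 0.213), and the list median was -0.21. The median deviation of the list was -0.19, -0.37 and 0.02 in Pias3-/- replicates 1, 2 and 3, and the summed level of replicate 3, 20196 CPM, lay within the wild-type range of 19351 to 21407 CPM. None of 78 nuclear genes of oxidative phosphorylation passed (median 0.10, and 0.01 after length correction) and none of 73 ribosomal protein genes did (median 0.17 and 0.07), with 6 and 11 higher and 0 lower at an unadjusted p of 0.05 or less, where 7.19% of all tested genes were higher. All 73 ribosomal genes had a positive log2 fold change, and these genes are short, with a median of 725 counted bases. The median deviation of the ribosomal list was 0.17, -0.09 and 0.38 in Pias3-/- replicates 1, 2 and 3.

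Among 22 genes of heat shock and the unfolded protein response none passed in the fit without length correction. The endoplasmic reticulum chaperones Hsp90b1 and Hspa5 were nearest, with 367, 359, 400, 267, 297 and 251 CPM for Hsp90b1 (-0.47, adjusted p = 0.0624) and 268, 237, 259, 180, 201 and 194 CPM for Hspa5 (-0.41, adjusted p = 0.0653). In both the knockout libraries were all below the wild type, and with length correction both passed (adjusted p = 0.0327 for Hsp90b1 and 0.0274 for Hspa5). Pnpla3, a lipase of lipid droplets, was the DEG among 18 genes of membrane lipids (113, 110, 117, 70.1, 73 and 62.5 CPM, -0.72, adjusted p = 0.0189), and Wnt2b, a Wnt ligand, was the DEG among 13 Wnt genes (11, 14, 13.9, 4.56, 4.03 and 4.55 CPM, -1.56, adjusted p = 0.00801). Both were lower, where 0.619% of all tested genes were lower DEGs. None of 20 cholesterol genes passed, with 3 higher and 1 lower at an unadjusted p of 0.05 or less, against 7.19% and 9.62% of all tested genes. The synthesis enzyme Fdps gave 0.41 (adjusted p = 0.133). None of the 6 tested genes of the cell cycle and progenitors passed, with 1 higher and 3 lower at that level, and Ccnd1, a cyclin of retinal progenitors, gave -0.44 (adjusted p = 0.137).

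In the pathway Pias3 itself belongs to, none of 24 SUMO genes passed the test by edgeR's quasi-likelihood method, with 4 higher and 1 lower at an unadjusted p of 0.05 or less (7.19% of all tested genes were higher and 9.62% lower) and a median of -0.01. The modifier gene Sumo3 was at 185, 180, 153, 209, 220.2 and 219.6 CPM (0.32, adjusted p = 0.138). Senp3, a protease that takes SUMO off, gave -0.33 (adjusted p = 0.0847). In both genes the genotypes did not overlap. None of 19 genes of the JAK-STAT pathway passed, with 0 higher and 1 lower at that unadjusted level, and the share of all tested genes lower was again 9.62%.

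Outside the lists, and leaving aside genes that the study's own figures name and clone-numbered genes, the largest lower changes were in genes of varied function. Hdc, which makes histamine, was at 5.01, 6.85, 5.34, 1.41, 2.54 and 1.56 CPM (-1.66 ± 0.25, adjusted p = 0.0343). Katnal2, of the katanin family that severs microtubules, was at 13.1, 14.5, 14.3, 5.29, 4.42 and 6.07 CPM (-1.40 ± 0.14, adjusted p = 0.00986). Nek1, a kinase of cilia and centrosomes, was at 31, 36.7, 32, 16.8, 17.2 and 16.1 CPM (-0.99, adjusted p = 0.00986). For matrix sugars, Xylt1, which starts glycosaminoglycan chains, and Chst3, which sulfates chondroitin, gave -1.03 and -1.12 (adjusted p = 0.0233 and 0.00986), and Adamts3, a procollagen protease, gave -0.91 (adjusted p = 0.0227).

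Among genes of signaling, Plch2, a phospholipase C, was lower (426, 426, 526, 267, 210 and 286 CPM, -0.85, adjusted p = 0.0398, and 0.0684 after correction for gene length). Rgs20, a regulator of G protein signaling, gave -0.87 (adjusted p = 0.0224) and Ano2, the calcium-gated chloride channel of photoreceptor terminals, was at 158, 147, 150, 88.4, 97.4 and 84.8 CPM (-0.75, adjusted p = 0.0138). Sox6, an HMG-box factor, and Fgfbp3, a carrier of fibroblast growth factors, gave -1.01 and -1.05 (adjusted p = 0.0312 and 0.0345). Pola1, the catalytic subunit of DNA polymerase alpha, gave -1.02 (adjusted p = 0.0227), Rnf123, a ubiquitin ligase, -0.88 (adjusted p = 0.0258) and Fhod3, a formin that assembles actin, -0.83 (adjusted p = 0.00906). Stk32a, a kinase, gave -0.83 (adjusted p = 0.0398), Ppp2r2b, a phosphatase subunit of neurons, -0.59 and Dpf3, a subunit of BAF chromatin remodelers, -0.60 (both adjusted p = 0.0227). Chrm3, a muscarinic receptor, gave -0.77 (adjusted p = 0.0454) and Sntb1, a syntrophin, -0.78 (adjusted p = 0.0322). Over all named calls, the highest adjusted p with 1 library left out ranged from 0.0516 to 0.268.

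The largest log2 fold change of all genes was that of Hist2h2bb, a histone H2B gene, with 0, 1, 0, 47, 39 and 49 counts (adjusted p = 0.00464). It was the 1 of 12 histone genes that passed, higher, against 0.239% of all tested genes. The wild-type libraries lay under the floor of 3 counts, so no fold is given, and reads of near-identical histone genes could be split. Of the other genes, again leaving aside those in the study's figures and clone numbers, Pros1 led the higher group. It encodes protein S, a ligand of the Mertk receptor of phagocytes, and was at 15.3, 13.6, 15.5, 28.8, 38.7 and 30.8 CPM (1.14 ± 0.14, adjusted p = 0.0206). Next came Tifa, an adaptor of NF-kappaB signaling, at 8.38, 9.21, 7.71, 15.6, 22.6 and 15.8 CPM (1.09 ± 0.17, adjusted p = 0.038). Rbm3, a cold-induced RNA-binding protein, stood at 153, 129, 116, 255, 250 and 240 CPM (0.90 ± 0.11, adjusted p = 0.0206). Mt2, a metallothionein, gave 1.03 (adjusted p = 0.05), Selenbp1, a selenium-binding protein, 0.82 (adjusted p = 0.0312), Cry1, a repressor of the circadian clock, 0.84 (adjusted p = 0.0336) and Hmgb3, a chromatin protein, 0.73 (adjusted p = 0.0263). Gpsm3, a regulator of G protein signaling in immune cells, was at 17.5, 16.7, 20.0, 33, 29.8 and 35 CPM (0.85, adjusted p = 0.0227), and Gzmm, a granzyme, at 16.2, 17.6, 17, 30.2, 26.6 and 34.2 CPM (0.84, adjusted p = 0.0263). The other higher genes of the rule were Mal, a raft protein of myelin and epithelia (0.78, adjusted p = 0.038), Fam19a4, a secreted chemokine-like protein (0.72, adjusted p = 0.0343), and Trub2, a pseudouridine synthase (0.64, adjusted p = 0.0474). Among 8 Fgf ligands and receptors the DEG was Fgf1, a growth factor of retinal neurons, at 96, 93.5, 91, 163, 172 and 171 CPM (0.85 ± 0.07, adjusted p = 0.00373), and its knockout libraries lay close together. Of all tested genes, 0.198% were higher DEGs.

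**Figure D4:**
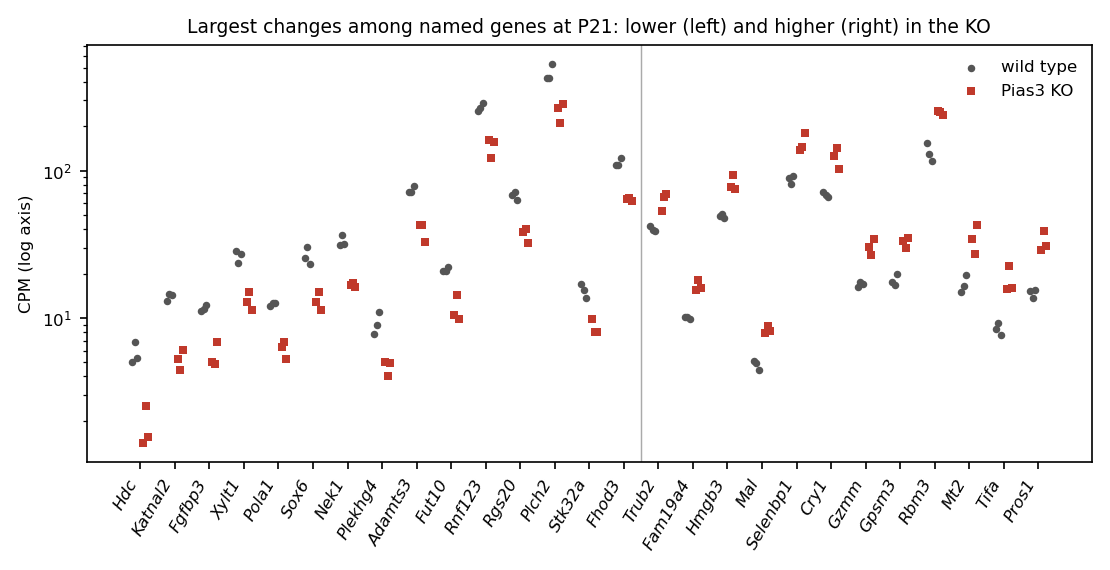
CPM in each P21 library (y axis, log scale) of 27 DEGs with gene names that had the largest fold changes without overlap outside the study's own figures, lower in Pias3-/- on the left and higher on the right. Gray circles are wild type and red squares Pias3-/-. Each red cluster clears the gray cluster of its gene, as the rule that chose the genes required, from Hdc near the bottom of the scale to Plch2 at 210 to 526 CPM.

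The DEGs were unevenly spread over the chromosomes. Chromosome 8 held 17 of the 99, 13 lower and 4 higher, or 2.54% of its 668 tested genes against 0.818% over all, and chromosome 18 held 9 of 333 (2.7%). Pias3 itself lies on chromosome 3, which held 8 of 587 (1.36%). The Wnt DEG Wnt2b lies on the same chromosome (chr3:104944805-104961709). Whether the stretch of chromosome around the targeted allele had a part in the changes of genes near it was not tested. The chromosome 8 genes included Fut10, a fucosyltransferase gene, Nek1, Nxnl1, Plekhg4 and the claudin gene Cldn23 (5.24, 4.43, 5.28, 0.901, 0.65 and 0.892 CPM, -2.59, adjusted p = 0.00319). This count was made after the values were seen and was not tested.

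At 18 months the medians were 0.04 for rods, -0.03 for shared photoreceptor genes and -0.15 for cones, against 0.01 over all genes tested at that age, and at P21 they were -0.35, -0.43 and -0.10. The difference of a list between the ages was not tested. For single genes the difference between the ages was tested by an interaction term in a fit of all 12 libraries, and 26 of 12448 genes passed (0.209%), with 8.89% at an unadjusted p of 0.05 or less. Leaving out 1 library left 10, 10 or 7 such genes without P21 wild-type replicate 1, 2 or 3, 7 without P21 Pias3-/- replicate 1, 9, 6 or 12 without 18-month wild-type replicate 1, 2 or 3, and 10, 17 or 20 without 18-month Pias3-/- replicate 1, 2 or 3, whereas 31 and 33 passed without P21 Pias3-/- replicates 2 and 3. At 18 months the wild-type libraries were all female and the Pias3-/- libraries all male, so genotype and sex cannot be told apart there. The lens list had a median of 6.22 at 18 months, against -1.79 at P21, and the ciliary margin list 0.90 against 0.10. Whether these tissues had a part in the differences between the ages was not tested. Gnat1 was 0.08 at 18 months, a difference of 0.70 from P21 (adjusted p = 0.00803). Egflam was 0.02 (difference 0.83, adjusted p = 0.0219) and Dscaml1 -0.06 (difference 1.12, adjusted p = 0.00803). For Rbp3 the difference of 0.59 did not pass (adjusted p = 0.226). Pias3 was lower at both ages, -0.71 and -0.84 (difference -0.13, adjusted p = 0.888).

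**Figure D5:**
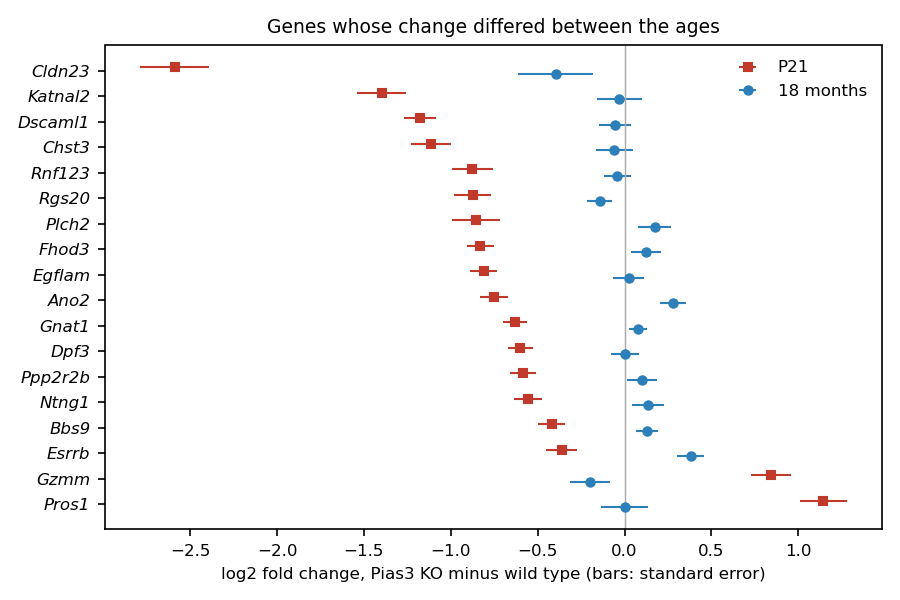
Log2 fold change, Pias3-/- minus wild type, at P21 (red squares) and 18 months (blue circles) for the 18 named genes whose change differed between the ages, with bars for 1 standard error. Of these, 16 were below 0 and 2 above 0 at P21, and at 18 months all but Cldn23 and Esrrb lay between -0.20 and 0.28.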

How the data were processed

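The deposited table holds counts per gene for all 12 samples. By the study's methods and the submitters' processing notes, the authors made stranded paired-end libraries, aligned reads with TopHat2 to mm10 and counted reads per gene with featureCounts; the annotation and its version are not given in the sources used here. Supplementary lists of the authors' own comparisons (fold changes and p-values) were not used.

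Counts of the 6 P21 libraries were scaled by TMM and tested with edgeR 4.0.16 (glmQLFit, glmQLFTest, two-sided; R 4.3.3) over 12109 genes with at least 2 FPKM in 1 or more libraries. P-values were adjusted by the Benjamini-Hochberg method. DEGs had an adjusted p of 0.05 or less and a fold change of 1.5 or more. The age interaction was fitted on all 12 libraries. Alternatives were other scaling, filters, likelihood ratio test, DESeq2 1.42.0, the replicate block, a pigment epithelium covariate, length correction by lowess and leaving out each library. An exact permutation test of 3 against 3 libraries cannot go below p = 0.1. Scripts were tested on simulated data.

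The comparison, its members and the gene lists were chosen with earlier results of these data known. Genes were named by a rule: the DEGs and up to 4 genes of lowest p and at least 10 CPM in each list, the 15 largest DEGs per direction without overlap, and defining markers, leaving out clone numbers and genes in the study's figures. Other genes with values, among them Gnat1, Egflam, Cldn23, Ano2, Fgf1, Abca8b, Ppp2r2b, Dpf3, Chrm3 and Sntb1, were chosen after their values were seen. Some list members are not reported by name here. Gene positions are those of the deposited table (mm10), and promoters are from RefSeq GRCm38.p6.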

Additional observations from a re-analysis of the deposited data

Results flagged for a closer look

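In 18 named genes the change with genotype differed between P21 and 18 months by the interaction term (edgeR quasi-likelihood test over 12448 genes), 16 of them lower and 2 higher at P21. Values are the log2 fold change at 18 months minus that at P21. At 18 months genotype and sex cannot be told apart, and the lens list had a median of 6.22, against -1.79 at P21. All 18 kept the sign of the difference in each of the 12 fits that left out 1 library, which their selection on the same libraries made likely. Of the 18, 15 and 16 kept the call without P21 Pias3-/- replicates 2 and 3, 11 and 8 without 18-month Pias3-/- replicates 2 and 3, and 4 to 6 without any 1 of the other 8 libraries. Among photoreceptor and synaptic genes the differences were 1.02 for Ano2 (adjusted p = 0.00352), 0.70 for Gnat1 (adjusted p = 0.00803), 0.83 for Egflam (adjusted p = 0.0219) and 0.54 for the BBSome gene Bbs9 (adjusted p = 0.0480). Esrrb, a nuclear receptor of rods, differed by 0.74 (adjusted p = 0.0282), from -0.36 at P21 to 0.38 at 18 months. Recognition genes were Dscaml1 with 1.12 (adjusted p = 0.00803) and Ntng1 with 0.68 (adjusted p = 0.0480). Cldn23, at the lowest level of the group, differed by 2.19 (adjusted p = 0.0174).

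Enzymes and signaling genes were Plch2 with 1.03, Rnf123 with 0.83, Dpf3 with 0.60 (each adjusted p = 0.0480), Rgs20 with 0.73 (adjusted p = 0.0440), Chst3 with 1.05 (adjusted p = 0.0282) and Ppp2r2b with 0.68 (adjusted p = 0.0333). The cytoskeletal genes Katnal2 and Fhod3 differed by 1.37 (adjusted p = 0.0170) and 0.95 (adjusted p = 0.00803). The 2 genes that were higher at P21 and not at 18 months were Gzmm with -1.05 (adjusted p = 0.0333) and Pros1 with -1.15 (adjusted p = 0.0440).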

How the results depend on the processing

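Against 99 DEGs, 24 higher and 75 lower, and 4 in the photoreceptor lists, scaling by library size gave 64, 37 of them lower and 1 in those lists. The likelihood ratio test gave 259 (74 higher, 185 lower, 10 in the lists), DESeq2 228 (59, 169 and 11), and a fit of all 12 samples 196 (54, 142 and 9). Without a filter there were 149, 51 higher, and edgeR's own filter gave 44 higher of 130. The pigment epithelium covariate gave 13 (7 higher, 6 lower, 0 in the lists). With the replicate block there were 175 (42, 133 and 9), and all 99 were among them; same-numbered samples did not deviate together throughout (correlations -0.25, 0.41 and 0.59), so the numbers were not read as a pairing. The likelihood ratio test gave 99 age interactions against 26. The causes were not tested.

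Library size scaling moved medians to -0.26 for rods, -0.0018 for cones, 0.068 and 0.040 for ON and OFF bipolar, -0.088 for horizontal, 0.13 for amacrine and 0.033 for Müller markers, and turned Opn1sw to 0.015 and Gnat2 to 0.038. The cone median was -0.12 without a filter, -0.13 with edgeR's filter and -0.17 with length correction. The covariate moved ON bipolar to -0.23, amacrine to -0.024 and ganglion cell markers to -0.0042, Glul to -0.034 and Rpe65 to 0.60. Leaving out 1 library gave 6 to 340 DEGs (2 to 47 higher, 4 to 293 lower), 0 to 19 in the photoreceptor lists and 6 to 33 interactions. The median ranges were -0.39 to -0.33 for rods, -0.46 to -0.34 for shared photoreceptor, -0.14 to -0.065 for cone, -0.15 to 0.0098 for ON, -0.077 to -0.0024 for OFF, -0.27 to -0.11 for horizontal, 0.00014 to 0.11 for amacrine, 0.042 to 0.20 for ganglion cell and -0.13 to -0.010 for Müller markers, and Glul ranged from -0.0037 to 0.081. All other named genes kept their direction in every alternative run. Genes under 2 FPKM were not tested, and small changes are limited by the 3 libraries of each genotype and by their depth.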
